A study of Mus musculus with 9 samples.

Results

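The tissue was cerebral cortex (E13.5) of mouse embryos labelled control, Sfpq+/- or Sfpq-/-, and Sfpq encodes a nuclear RNA-binding protein. The genes described here are the nuclear genes for subunits of respiratory chain complexes I to IV. They were chosen by symbol: every gene that starts with Nduf (without the Ndufaf assembly factors), Uqcr or Cox4 to Cox8, together with Sdha, Sdhb, Sdhc, Sdhd and Cyc1, and that averages 0.5 RPKM or more across the 9 libraries. RPKM, a read count scaled to the transcript length in kilobases and to 1000000 reads, is the unit the authors deposited, and each gene is represented by its RefSeq transcript with the highest mean. Of the 23201 genes in the tables, 70 matched by symbol and 65 reached the minimum: 39 of complex I, 4 of complex II, 9 of complex III and 13 of complex IV. Measured values enter the rule only through that minimum and the choice of transcript. The rule was set with earlier results of these data known. The count for complex I includes Ndufs5-ps, which is annotated as a pseudogene, and Ndufa4, which carries a complex I name and is also known as a complex IV subunit.

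The groups were 3 libraries of homozygous Sfpq-/- embryos, 3 of heterozygous Sfpq+/- embryos and 3 of control embryos, all at E13.5 and labelled with the strains C57BL/6+C57BL/6J+CBA. The tissue is labelled as a mixture of neuronal stem cells and neurons. How the Sfpq allele was made, in which cells it acts, and which alleles the control embryos carry is information not given in the sources used here. Nothing in the labels says how many embryos went into a library, so p-values measure the spread between libraries.

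The respiratory chain sits in the inner mitochondrial membrane. Complex I takes electrons from NADH and complex II takes them from succinate, complex III passes them on from ubiquinol to cytochrome c, and complex IV hands them to oxygen, while complexes I, III and IV pump protons. Most subunits are encoded in the nucleus and assembled in the mitochondrion with a few core subunits encoded by mitochondrial DNA. Radial glia of the embryonic cortex lean on glycolysis, and neurons that arise from them rely more on this chain. Some complex IV subunits have alternative isoforms used in muscle, lung, testis or other tissues.

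Depth, estimated from the steps between low values, was 169.5 to 204.5 M reads (M, 1000000) per library. Homozygous libraries held 26.1, 28.6 and 27.6 RPKM of Sfpq, heterozygous ones 185.0, 162.8 and 168.6 RPKM, and control ones 184.0, 201.6 and 217.9 RPKM. The homozygous libraries lay far below both other groups, with a log2 change of -2.85 ± 0.07 (SE) against control (limma adjusted p = 1.22e-09), and the heterozygous group overlapped control (-0.22 ± 0.07, adjusted p = 0.709). All 12 cortex markers on the list were present. Their summed level was 597.7 to 693.5 RPKM in homozygous, 746.8 to 826.5 RPKM in heterozygous and 735.4 to 868.5 RPKM in control cortex. At a limma adjusted p below 0.05, 5 of the 12 were lower and 1 higher in homozygous against control cortex. Over all genes tested 19.9% were lower and 14.4% higher. By Xist and Y-linked genes, the homozygous libraries read as 1 female and 2 male, the heterozygous ones as 3 male and the control ones as 2 female and 1 male. Heterozygous replicate 3, read as male, also held 0.131 RPKM of Xist, against at most 0.00324 RPKM in the other male ones and at least 2.44 RPKM in the female ones. In bulk tissue, fewer cells of a type and less RNA per cell cannot be told apart.

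Sequence around the starts of these genes is shown first, because nuclear respiratory genes are known for sharing short promoter motifs. Promoter windows of 300 bases (250 before and 50 after the RefSeq start, GRCm38.p6) were at hand for 51 of the 65 genes. The letters GCGCATGCG, a form of the motif of NRF1, a transcription factor known for driving nuclear respiratory genes, were found on either strand in 9.8% of these windows, in 3.9% of the 9661 windows of all genes tested and in 1.81% of all 27025 promoters. The 5 genes with a match are printed with the match in capitals, 5′ to 3′ on the strand of the gene.
Ndufa8, chr2:36049328-36049357, minus strand: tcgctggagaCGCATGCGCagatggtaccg
Cox6a1, chr5:115349101-115349130, minus strand: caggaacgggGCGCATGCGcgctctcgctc
Uqcrc1, chr9:108936668-108936697, plus strand: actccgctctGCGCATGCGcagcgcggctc
Uqcr11, chr10:80406807-80406836, minus strand: atcgccttcaCGCATGCGCtatacgtctgc
Ndufa11, chr17:56717692-56717721, plus strand: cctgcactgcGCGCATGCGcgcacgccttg
These letters are nearly their own reverse complement, so in Cox6a1, Uqcrc1 and Ndufa11 matches on both strands overlap, and each gene was counted once. None of these 5 genes passed the test between homozygous and control cortex (limma adjusted p below 0.05, which 19.9% of all genes tested passed as lower and 14.4% as higher), with log2 changes between -0.02 for Uqcrc1 and 0.15 for Uqcr11.

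The letters AAGATGGCG, a form of the motif of YY1, a zinc-finger factor known from promoters of housekeeping genes, were found in 9.8% of the members' windows, in 3.38% of the windows of all genes tested and in 1.49% of all promoters. The matches lie just after the RefSeq start and are printed in capitals, because one of the 5 genes, Ndufs4, had the largest change of all members.
Ndufs4, chr13:114388045-114388074, minus strand: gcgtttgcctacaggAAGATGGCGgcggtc
Ndufs6, chr13:73328433-73328462, minus strand: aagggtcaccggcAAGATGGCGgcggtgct
Ndufs7, chr10:80249463-80249492, plus strand: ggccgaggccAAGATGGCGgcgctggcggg
Ndufa9, chr6:126849096-126849125, minus strand: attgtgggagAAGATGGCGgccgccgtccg
Ndufc1, chr3:51408914-51408943, minus strand: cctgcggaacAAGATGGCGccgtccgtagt
The log2 change of Ndufs4 between homozygous and control cortex was -1.10, whereas the other four lay between -0.08 for Ndufs7 and 0.04 for Ndufa9 and did not pass the test. The GABP letters CCGGAAG were found in 21.6% of the members' windows and in 18.7% of those of all genes tested, and the ERR letters TCAAGGTCA in 1.96% and 0.228%. Over the 4 motifs 19 members had a match on either strand, and 1 of them, Ndufs4, was among those that changed, against the same 19.9% lower and 14.4% higher of all genes. A match describes letters in a window and is not evidence of a bound site.

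The main question is how the chain fared in cortex of embryos labelled Sfpq-/-. In RPKM as deposited the subunit genes as a whole stayed close to their control levels. Of the 65, 42 had a log2 change under 0.1 in size and 59 one under 0.25. The same shares over all genes tested were not counted. A few genes stood apart. Ndufs4, an accessory subunit of complex I, fell to 14.8 ± 0.755 RPKM in homozygous cortex, against 32.4 ± 2.14 RPKM in control cortex (SD, n = 3 each). Ndufa1, another accessory subunit, fell to 25.1 ± 2.14 RPKM, against 39.7 ± 3.12 RPKM in control cortex, and Cox4i2, the rarer isoform of complex IV subunit 4, rose to 3.14 ± 0.460 RPKM, against 1.58 ± 0.104 RPKM in control cortex. Here and below a log2 change is a difference of mean log2(RPKM + 0.5), which understates the change of genes with low values, and a gene is said to have changed where limma's Benjamini-Hochberg adjusted p, taken over all 12159 genes tested, was below 0.05.

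Of the 65 members, 6 were lower and 4 higher in homozygous cortex, against a background of 19.9% lower and 14.4% higher over all genes tested (a description, with no test between members and other genes). The lower ones were Ndufs4, Ndufa1, Ndufa12, Ndufv1, Ndufv3 and Sdhc, and the higher ones Cox4i2, Ndufb11, Sdha and Ndufa5. Homozygous and control libraries did not overlap for 19 members, which is fewer in proportion than the 46.2% of all genes. Changes that passed the test and were at least 0.5 in size on the log2 scale were found for 3 members, Ndufs4, Ndufa1 and Cox4i2, against 11.3% of all genes. The median log2 change was 0.02 over the members and -0.01 over all genes, and the median standard error of a member was 0.06. By complex, the median was 0.01 in complex I (5 lower and 2 higher of 39), 0.02 in complex II (1 and 1 of 4), 0.04 in complex III (0 and 0 of 9, with 2 at an unadjusted limma p below 0.05) and 0.01 in complex IV (0 and 1 of 13). With each library centred on its median the numbers were 4 lower and 12 higher of the 65 and 1947 lower and 2953 higher of all genes, against 2423 and 1747 without it. The median log2 change was then 0.08 over the members and 0.06 over all genes. By complex it was 0.08 in complex I, 0.09 in complex II, 0.11 in complex III and 0.08 in complex IV.

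Single outliers were taken as members more than 1.5 interquartile ranges outside the quartiles of all members, which in this comparison means below -0.22 or above 0.24. There were 7: Ndufs4, Ndufa1, Ndufa12, Ndufv1 and Sdhc on the low side, and Cox4i2 and Ndufa4l2 on the high side. Ndufa4l2 did not pass the test.

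**Figure D1:**
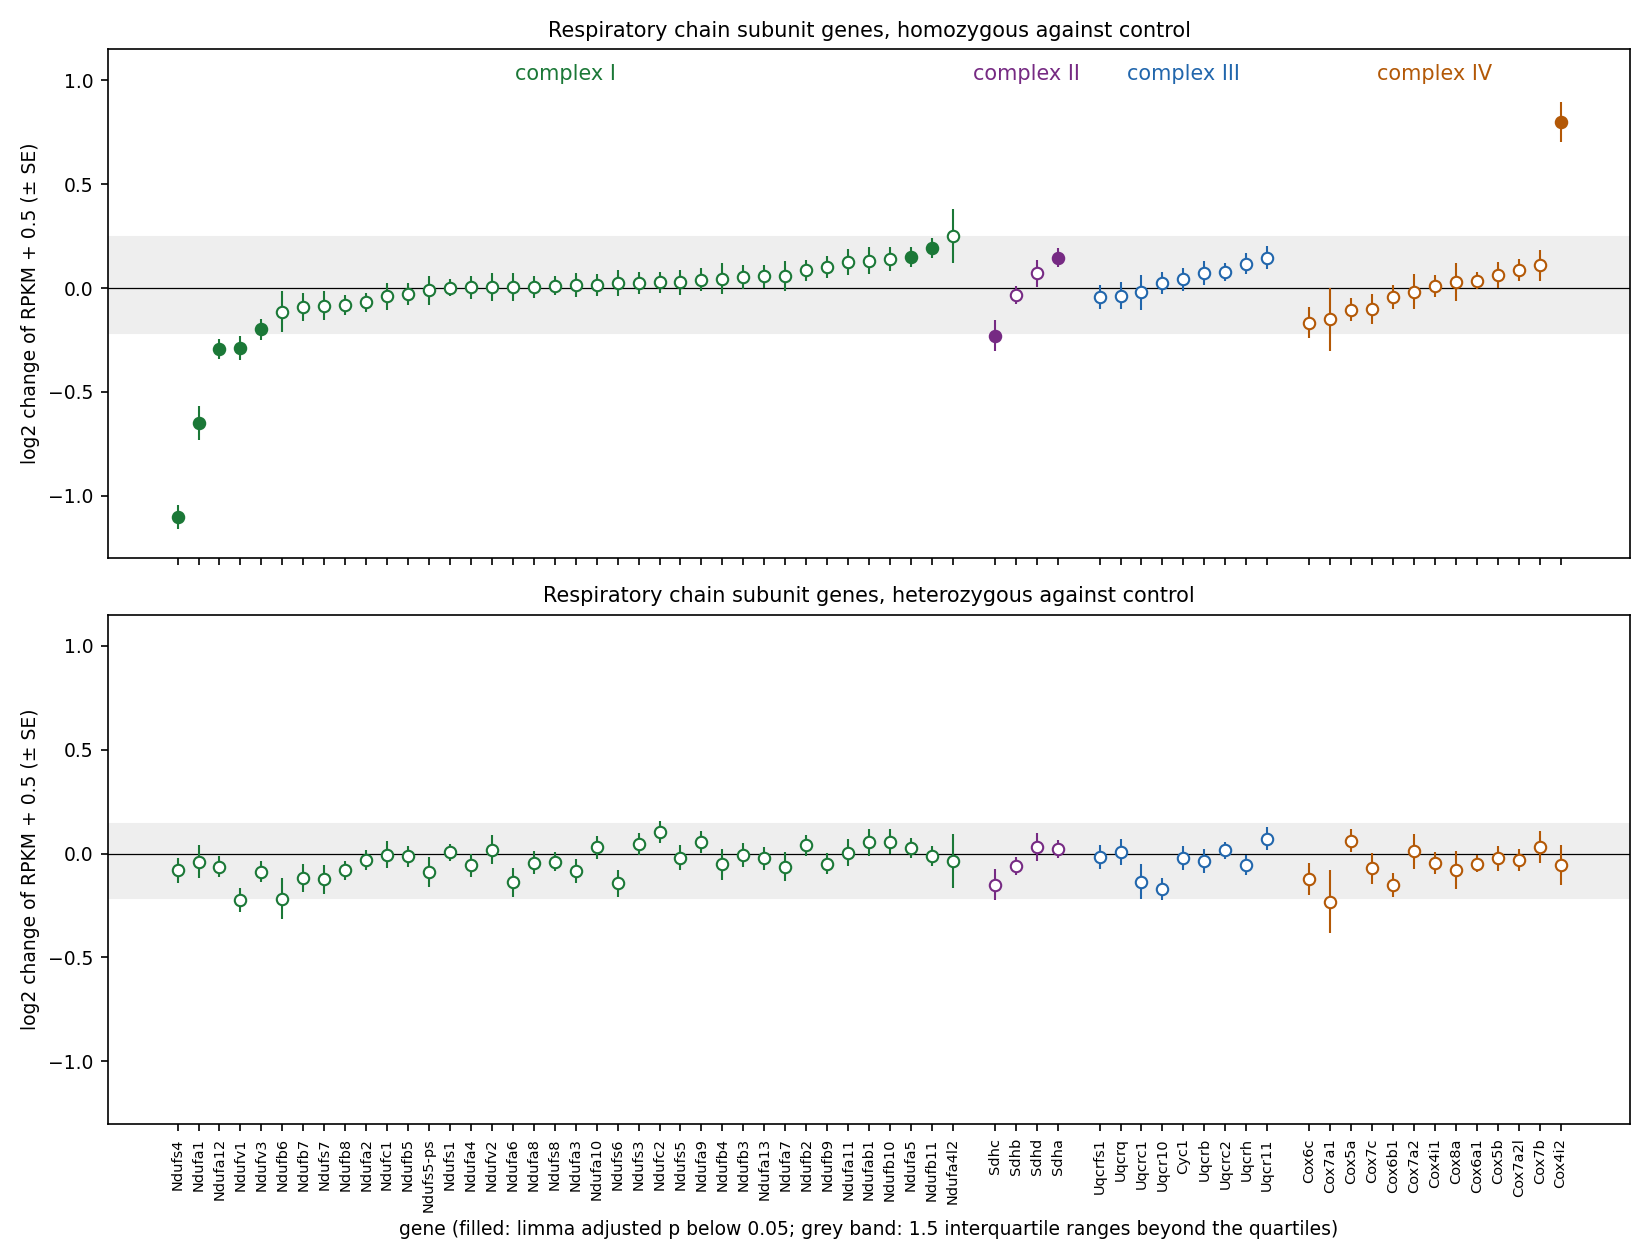
Log2 change of RPKM + 0.5 (vertical axis, ± SE) of 64 of the 65 subunit genes (horizontal axis, grouped by complex), in homozygous against control cortex (upper panel) and in heterozygous against control cortex (lower panel). Filled points passed the test and the grey band marks the range inside the outlier limits; in the upper panel Ndufs4 at -1.10, Ndufa1 at -0.65 and Cox4i2 at 0.80 stand far from the other genes, and in the lower panel no point is filled.

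Complex I is built from modules, and its genes were counted by module. The N module, which binds NADH and passes its electrons into the complex, had 4 of 8 listed genes lower and none higher in homozygous cortex (median log2 change -0.13; over all genes tested 19.9% were lower and 14.4% higher; 3 lower with libraries centred on their medians, where Ndufv3 was lost). The Q module, which reduces ubiquinone, had none of 5 lower and 1 higher (median 0.03). No test of the difference between the modules was made. Of the 7 nuclear-encoded core subunits conserved from bacteria, 1 was lower, Ndufv1.

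Ndufs4 is an accessory subunit at the junction of the N and Q modules, and mice without it are a widely used model of Leigh syndrome. It was at 14.95, 15.52 and 14.03 RPKM in homozygous, at 30.79, 30.61 and 30.36 RPKM in heterozygous and at 33.66, 33.64 and 29.94 RPKM in control libraries. All 3 homozygous libraries lay below all 6 others, and heterozygous and control libraries overlapped. The log2 change against control was -1.10 ± 0.06 (SE, adjusted p = 1.98e-07), and an exact permutation test on its levels had p = 0.1, the lowest reachable with 3 against 3 and also the value for every other changed member below. It kept its direction and its call under all 21 alternatives, with log2 changes between -1.16 and -1.03.

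Ndufa12, which docks near Ndufs4 and is a paralogue of the assembly factor Ndufaf2, was at 191, 179.7 and 182 RPKM in homozygous, at 214, 218.5 and 215 RPKM in heterozygous and at 215, 238 and 224 RPKM in control libraries. The homozygous libraries were again the 3 lowest (log2 change -0.29 ± 0.05, adjusted p = 0.000892). Of the 50-base words of its transcript, 53.8% also occur in 1 other annotated gene, so its level is uncertain where reads could be split between copies. Ndufv1, the flavoprotein that holds the FMN and the NADH site, was at 75.3, 64.6 and 69.6 RPKM in homozygous, at 74.6, 73.4 and 70.8 RPKM in heterozygous and at 86.4, 83.8 and 85.6 RPKM in control libraries. Here both mutant groups lay below control and overlapped each other; the change was -0.29 ± 0.06 in homozygous (adjusted p = 0.00234) and -0.22 ± 0.06 in heterozygous cortex (adjusted p = 0.565). Ndufv3, a small accessory subunit of the same module, was at 53.5, 53.0 and 53.8 RPKM in homozygous, at 58.4, 54.6 and 60.2 RPKM in heterozygous and at 62.1, 58.8 and 63.3 RPKM in control libraries. The homozygous libraries were the lowest 3 and the heterozygous ones overlapped control (log2 change -0.20 ± 0.05, adjusted p = 0.0107; adjusted p = 0.0695 with libraries centred on their medians).

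The other four genes of the N module did not pass the test. Ndufs1, the largest subunit of the complex and a carrier of iron-sulfur clusters, was nearly constant over the 9 libraries, at 63.5 ± 0.754 RPKM in homozygous, 63.7 ± 0.908 RPKM in heterozygous and 63.5 ± 1.24 RPKM in control cortex (SD, n = 3 each), the smallest coefficient of variation of all members at 1.35%. Ndufv2 had a log2 change of 0.01 ± 0.07, Ndufs6 one of 0.02 ± 0.06 and Ndufa2 one of -0.07 ± 0.05.

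Ndufa5, an accessory subunit of the Q module, was the one gene of that module to change. It was at 57.1, 60.2 and 57.2 RPKM in homozygous, at 51.1, 56.0 and 53.1 RPKM in heterozygous and at 52.7, 51.4 and 53.0 RPKM in control libraries. The homozygous libraries were the 3 highest, by a log2 change of 0.15 ± 0.05 (adjusted p = 0.0342), a call lost in 8 of 21 alternatives (adjusted p up to 0.117). Of its core neighbours, Ndufs3, Ndufs7 and Ndufs8 had log2 changes of 0.03, -0.08 and 0.01 and did not pass.

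The membrane arm of complex I holds most accessory subunits, and in it 2 X-linked genes changed in opposite directions. Ndufa1, a small membrane-anchored subunit needed for assembly of the complex, was at 25.2, 27.3 and 23.0 RPKM in homozygous, at 35.2, 40.6 and 40 RPKM in heterozygous and at 42.9, 39.5 and 36.7 RPKM in control libraries. All homozygous libraries lay below all others, which overlapped (log2 change -0.65 ± 0.08, adjusted p = 0.000103). Ndufb11, an accessory subunit on the same arm, was at 121, 109.9 and 118 RPKM in homozygous, at 99.4, 102 and 100.5 RPKM in heterozygous and at 99.3, 102 and 103 RPKM in control libraries. Its homozygous libraries lay above all others (log2 change 0.19 ± 0.05, adjusted p = 0.00886). An exon of Ndufb11 overlaps an exon of Rbm10 on the opposite strand in the annotation, and the use of strand in the authors' counting is a detail not given in the sources used here. Both calls held with the sex read from each library as a term in the fit.

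Next to Ndufa1 lies Rnf113a1, a RING-finger gene on the other strand whose RefSeq start falls inside the first exon of Ndufa1. The 17 bases that both RefSeq first exons share are in capitals, printed on the plus strand of chromosome X (GRCm38.p6, chrX:37191216-37191245); Rnf113a1 runs on that strand and Ndufa1 on the opposite one.
Ndufa1 and Rnf113a1: ggctgtGGGGGCCCAAAAGTGACtggcgtt
Rnf113a1, named after its value was seen, was also lower, at a mean of 2.70 RPKM in homozygous and 4.12 RPKM in control cortex (log2 change -0.53 ± 0.08, adjusted p = 0.000545). Nkap, the next gene with a value on the other side, had a log2 change of 0.06 ± 0.06 (adjusted p = 0.424). In GENCODE the first exons of Ndufa1 and Rnf113a1 do not overlap and the genes lie 0.082 kb apart.

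The remaining complex I genes did not pass the test, with log2 changes from -0.11 for Ndufb6 to 0.25 for Ndufa4l2. Ndufb6 varied most among the abundant ones, at 74.6, 57.8 and 77.2 RPKM in homozygous libraries, 65.5, 67.7 and 60.3 RPKM in heterozygous libraries and 77.6, 78.3 and 69.5 RPKM in control libraries, so that homozygous and control libraries overlapped. Ndufs5-ps, the pseudogene, had 31.1 ± 3.39 RPKM in homozygous, 29.3 ± 0.711 RPKM in heterozygous and 31.2 ± 1.16 RPKM in control cortex (SD, n = 3 each). Its parent Ndufs5 shares 41.2% of its 50-base words with 1 other gene, so the 2 values may hold the same reads.

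**Figure D2:**
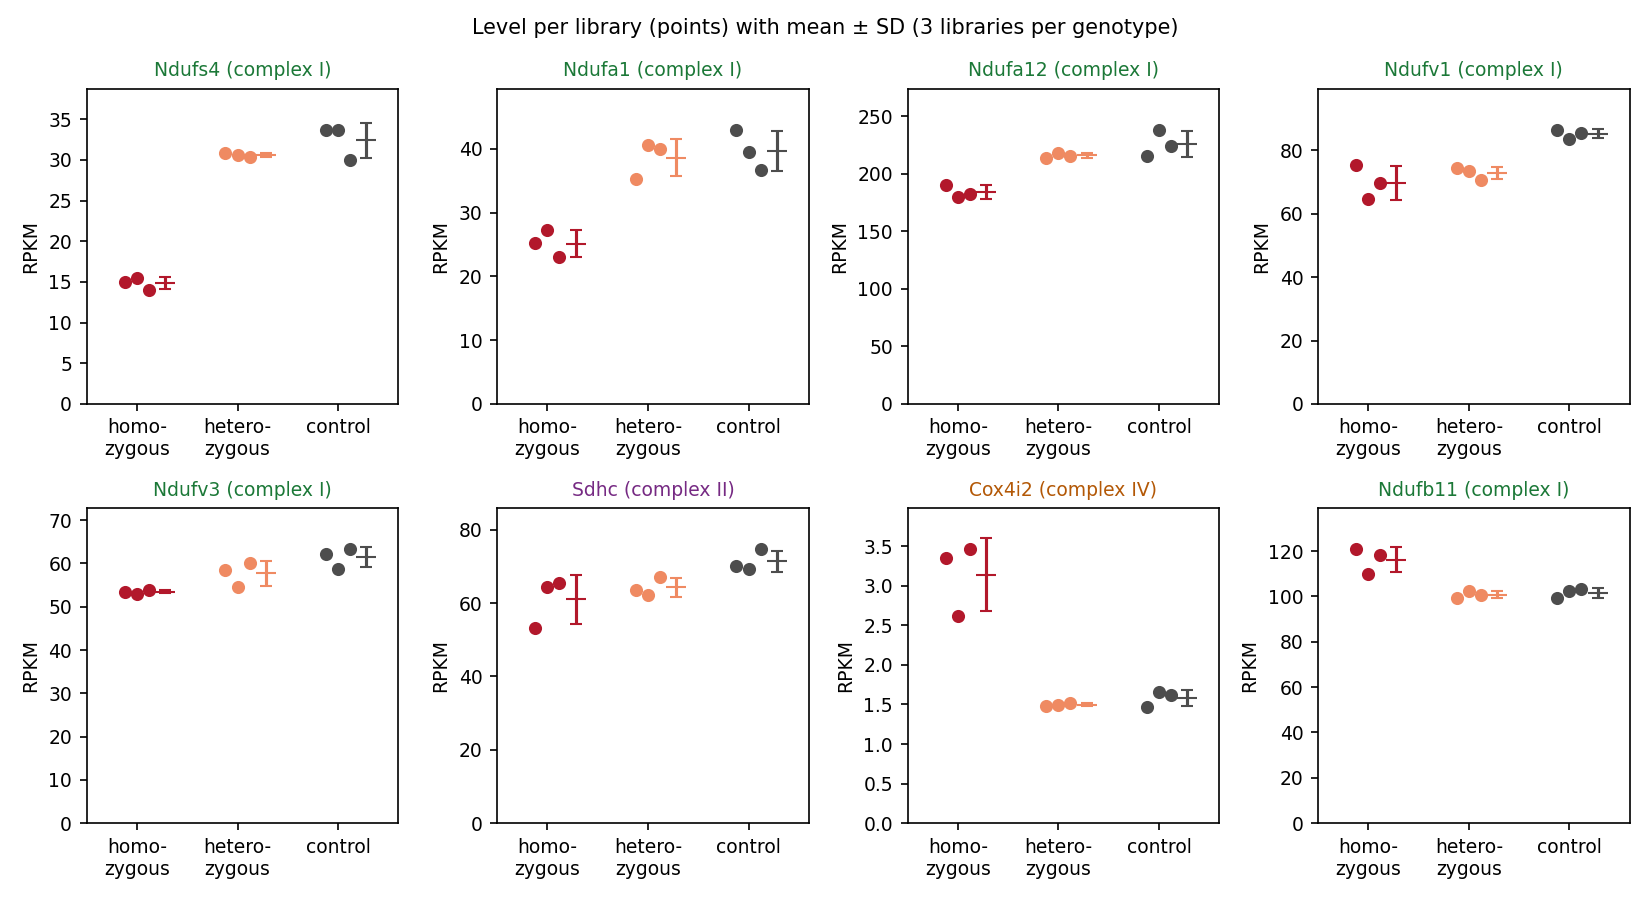
RPKM (vertical axes, from 0) of 8 subunit genes in each library, with homozygous, heterozygous and control libraries side by side; points are libraries and bars the mean ± SD of 3. The homozygous points of Ndufs4, Ndufa1 and Ndufa12 lie below and those of Cox4i2 and Ndufb11 above all other points, while for Ndufv1 and Sdhc the heterozygous points lie among or near the homozygous ones.

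Complex II, succinate dehydrogenase, is made of 4 nuclear subunits, and 2 of them changed in opposite directions by small amounts. Over all genes tested 19.9% were lower and 14.4% higher. Sdhc, one of the membrane anchors, was at 53.3, 64.4 and 65.3 RPKM in homozygous, at 63.5, 62.2 and 67.1 RPKM in heterozygous and at 70.0, 69.3 and 74.6 RPKM in control libraries. Both mutant groups lay below control and overlapped each other, and the first homozygous library was the lowest of all. The log2 change was -0.23 ± 0.07 (adjusted p = 0.0332), a call lost in 9 of 21 alternatives (adjusted p up to 0.106), among them leaving out homozygous replicate 1 or any of the control libraries. Sdha, the flavoprotein that oxidises succinate, was at 69.8, 74.4 and 72.9 RPKM in homozygous, at 66.7, 65.4 and 66.8 RPKM in heterozygous and at 63.8, 65.8 and 66.2 RPKM in control libraries. The homozygous libraries were the 3 highest (log2 change 0.15 ± 0.04, adjusted p = 0.0226), and the call was lost in 5 of 21 alternatives. Sdhb, the iron-sulfur subunit, was at 124, 124 and 122 RPKM in homozygous, at 122, 124 and 118 RPKM in heterozygous and at 130, 127 and 122.5 RPKM in control libraries. Sdhd, the other anchor, was at 33.4, 34.7 and 30.5 RPKM in homozygous, at 30.5, 31.8 and 33.5 RPKM in heterozygous and at 33.6, 29.7 and 30.5 RPKM in control libraries. For both of these genes homozygous and control libraries overlapped, and the log2 changes of -0.03 and 0.07 did not pass.

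Complex III, the cytochrome bc1 complex, had none of its 9 genes changed against control, although Uqcr11 and Uqcrh had an unadjusted limma p below 0.05. Uqcrh, the hinge protein that helps cytochrome c dock, was at 638, 608.6 and 633 RPKM in homozygous, at 539, 573 and 556 RPKM in heterozygous and at 565, 566 and 600.5 RPKM in control libraries. The homozygous libraries were the 3 highest (log2 change 0.12 ± 0.05, adjusted p = 0.0911). Uqcrb, a subunit at the ubiquinone site, was at 238, 225 and 235 RPKM in homozygous, at 226, 222 and 199 RPKM in heterozygous and at 225.5, 226 and 211 RPKM in control libraries, and the groups overlapped. The least abundant were Uqcrq and Cyc1. Uqcrq was at 14.8, 14.1 and 14.4 RPKM in homozygous, at 13.8, 15.6 and 15.4 RPKM in heterozygous and at 14.8, 14.03 and 15.6 RPKM in control libraries. Cyc1, which carries the haem of cytochrome c1, was at 22.2, 21.6 and 21.8 RPKM in homozygous, at 19.4, 21.8 and 21.6 RPKM in heterozygous and at 22.1, 20.5 and 21.1 RPKM in control libraries. The core proteins Uqcrc1 and Uqcrc2 had log2 changes of -0.02 and 0.08, and the Rieske iron-sulfur protein Uqcrfs1 one of -0.04.

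Complex IV, cytochrome c oxidase, has alternative isoforms for several subunits, and its one change was in such an isoform. Cox4i2 replaces the common subunit 4 isoform in lung and some vascular cells. It was at 3.35, 2.61 and 3.46 RPKM in homozygous, at 1.49, 1.49 and 1.52 RPKM in heterozygous and at 1.46, 1.66 and 1.61 RPKM in control libraries. All 3 homozygous libraries lay above all 6 others (log2 change 0.80 ± 0.10, adjusted p = 8.41e-05), and the call held in all 21 alternatives with changes between 0.68 and 0.94. Its partner Cox4i1 was at 526, 519.9 and 523 RPKM in homozygous, at 489, 508 and 512 RPKM in heterozygous and at 518, 490.0 and 550.0 RPKM in control libraries. Its homozygous libraries overlapped control (log2 change 0.01 ± 0.05, adjusted p = 0.892) and lay above the heterozygous ones, and Cox4i2 was the far rarer of the pair per length in every library. The difference between the 2 changes was not tested.

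Markers of cells in which Cox4i2 is known were read beside it. Of the 6 markers of meninges and pericytes, 1 was higher in homozygous against control cortex (Rgs5, log2 change 0.30 ± 0.10, adjusted p = 0.0380) and none lower, and none was at 0. Their summed level was 59.2 to 72.8 RPKM in homozygous, 55.1 to 80.5 RPKM in heterozygous and 51.7 to 70.7 RPKM in control libraries. The 6 endothelial markers had none higher or lower, with a summed level of 67.6 to 86.8 RPKM in homozygous, 66.4 to 71.9 RPKM in heterozygous and 63.8 to 82.6 RPKM in control libraries. The part of these cells in the Cox4i2 result was not tested. Of the 7 microglial markers, 3 were higher in homozygous against control cortex, and of the 7 erythroid markers 2 were lower. The microglial markers summed to 16.8 to 23.4 RPKM in homozygous, 13.8 to 16.7 RPKM in heterozygous and 13.0 to 14.3 RPKM in control libraries. For all these marker counts the background over all genes tested was 19.9% lower and 14.4% higher.

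Among the other complex IV pairs, the isoform used in most tissues was the abundant one throughout. Cox6a1 was at 71.3, 72.1 and 74.3 RPKM in homozygous, at 69.4, 67.1 and 68.9 RPKM in heterozygous and at 70.3, 71.0 and 71.2 RPKM in control libraries. Its heart and muscle partner Cox6a2 was listed at 0 in 8 libraries and at 0.00855 RPKM in homozygous replicate 2. Cox6b1 was at 276, 249 and 264 RPKM in homozygous, at 250.3, 246 and 236 RPKM in heterozygous and at 273, 254 and 286 RPKM in control libraries. Its testis partner Cox6b2, below the minimum and not tested, was at 0.332, 0.281 and 0.321 RPKM in homozygous, at 0.110, 0.143 and 0.137 RPKM in heterozygous and at 0.0737, 0.242 and 0.315 RPKM in control libraries. For both genes of that pair homozygous and control libraries overlapped.

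Subunit 7a has 3 related genes. Cox7a2l, known as a factor that joins complexes III and IV into supercomplexes, was at 156, 159 and 162 RPKM in homozygous, at 143, 145 and 151 RPKM in heterozygous and at 146, 143 and 160.0 RPKM in control libraries. Cox7a2, the widespread isoform, was at 51.6, 48.2 and 46.0 RPKM in homozygous, at 48.3, 49.7 and 50.7 RPKM in heterozygous and at 57.3, 47.1 and 44.0 RPKM in control libraries. Cox7a1, the heart and muscle isoform, lay just above the minimum, at 1.07, 0.539 and 0.558 RPKM in homozygous, at 0.714, 0.658 and 0.531 RPKM in heterozygous and at 1.02, 0.756 and 0.730 RPKM in control libraries. Homozygous and control libraries overlapped for all 3 genes. The 6 muscle markers summed to 0.494 to 0.589 RPKM in homozygous, 0.671 to 1.33 RPKM in heterozygous and 0.447 to 0.632 RPKM in control libraries, with Ckm at 0 in all control libraries.

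Cox7b was at 43.7, 42.3 and 39.8 RPKM in homozygous, at 36.3, 40.2 and 42.8 RPKM in heterozygous and at 42.6, 37.8 and 36.2 RPKM in control libraries, and its testis partner Cox7b2 averaged 0.05 RPKM over the 9 libraries. Cox8a was at 39.8, 40.1 and 37.8 RPKM in homozygous, at 31.2, 36.5 and 42.0 RPKM in heterozygous and at 37.2, 36.9 and 41.2 RPKM in control libraries, while Cox8b and Cox8c were listed at 0 in every library. Cox6c, the second most abundant complex IV gene, was at 356, 371 and 335 RPKM in homozygous, at 351, 414.5 and 332 RPKM in heterozygous and at 389, 392 and 409.8 RPKM in control libraries. Its homozygous libraries lay below all controls, but the change of -0.17 ± 0.08 did not pass (adjusted p = 0.119). Cox5a, Cox5b and Cox7c had log2 changes of -0.10, 0.06 and -0.10 and did not pass.

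Ndufa4 and Ndufa4l2 form a pair of the same kind, the second known as a gene induced by low oxygen. Ndufa4 was at 341, 333.5 and 322 RPKM in homozygous, at 299, 336 and 321 RPKM in heterozygous and at 348, 318 and 328 RPKM in control libraries, and the groups overlapped. Ndufa4l2 was at 0.741, 1.10 and 1.19 RPKM in homozygous, at 0.764, 0.569 and 0.866 RPKM in heterozygous and at 0.647, 0.783 and 0.848 RPKM in control libraries. The first homozygous library lay among the controls (log2 change 0.25 ± 0.13, adjusted p = 0.162). An exon of it overlaps one of Shmt2 on the opposite strand in the annotation.

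The second comparison sets heterozygous against control cortex. No subunit gene passed the test in heterozygous against control cortex, and neither did any of the 12159 genes tested with limma (0.0% over both directions). At an unadjusted p below 0.05 there were 5 of 65 members, against 5.75% of all genes, and fitting each pair of groups alone called 1 gene of all and no member. The 5 were Ndufv1, Uqcr10, Cox6b1, Ndufs6 and Ndufb6, each with a negative change. Heterozygous and control libraries did not overlap for 11 members, against 11.1% of all genes. All 65 changes were under 0.25 in size and 52 under 0.1. The median was -0.04 over the members and -0.01 over all genes. With sex as a term it was -0.014 over the members and -0.051 over all genes, and after quantile normalization -0.004 and 0.004. By complex the median was -0.04 in complex I, -0.02 in complex II, -0.02 in complex III (0.01 after quantile normalization) and -0.05 in complex IV. Outside the outlier limits of this comparison (-0.21 and 0.14) lay Cox7a1 at -0.23 ± 0.15, Ndufv1 at -0.22 ± 0.06 and Ndufb6 at -0.22 ± 0.10. Ndufs4 had a change of -0.08 ± 0.06 (adjusted p = 0.967), Ndufa1 one of -0.04 ± 0.08 and Cox4i2 one of -0.06 ± 0.10 (adjusted p = 0.997 each).

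The third comparison sets homozygous against heterozygous cortex, and it shares the homozygous libraries with the first. Here 4 members were lower, Ndufs4, Ndufa1, Ndufa12 and Cox5a, and 6 higher, Cox4i2, Ndufb11, Uqcr10, Uqcrh, Ndufb9 and Sdha, against a background of 18.3% lower and 14.6% higher. Ndufs4 had a log2 change of -1.02 ± 0.06 (adjusted p = 3.8e-07), Ndufa1 one of -0.61 ± 0.08 (adjusted p = 0.000171), Ndufa12 one of -0.23 ± 0.05 (adjusted p = 0.00433), Ndufb11 one of 0.20 ± 0.05 (adjusted p = 0.00676) and Cox4i2 one of 0.86 ± 0.10 (adjusted p = 5.24e-05). These 5 genes and Sdha passed in both comparisons with homozygous cortex, with the same sign.

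In complex III and its surroundings the values of this comparison were as follows. Uqcr10, a small subunit of complex III, was at 112, 108 and 104 RPKM in homozygous, at 91.7, 97.0 and 93.3 RPKM in heterozygous and at 112, 101 and 105.5 RPKM in control libraries. The heterozygous libraries were the 3 lowest of the 9, and homozygous and control libraries overlapped (homozygous against heterozygous 0.20 ± 0.05, adjusted p = 0.0135, and 0.0579 without homozygous replicate 1, where the call was lost). Uqcrh, whose values stand above, had a change of 0.17 ± 0.05 (adjusted p = 0.0209; lost in 5 of 21 alternatives). Ndufb9, an accessory subunit of the complex I membrane arm, was at 207, 193.5 and 208 RPKM in homozygous, at 180.2, 183 and 185.5 RPKM in heterozygous and at 182, 186 and 200.5 RPKM in control libraries. Its homozygous libraries lay above the heterozygous ones (0.15 ± 0.05, adjusted p = 0.0444; lost in 8 of 21 alternatives). Cox5a, a matrix-side subunit of complex IV, was at 49.7, 50.6 and 50.8 RPKM in homozygous, at 55.6, 55.7 and 58.4 RPKM in heterozygous and at 58.4, 53.9 and 50.4 RPKM in control libraries. Its homozygous libraries lay below the heterozygous ones and overlapped control (-0.17 ± 0.06, adjusted p = 0.0410), and Cox5a and Sdha (0.13 ± 0.04, adjusted p = 0.0474) each lost the call in 11 of 21 alternatives. Without heterozygous replicate 1 or without heterozygous replicate 3, the number of higher members fell to 3.

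Levels differed far more between genes than between genotypes. RPKM is per length, so levels of different genes can be set roughly side by side. The comparison is less certain for the 24 of 64 members that share at least 10% of their 50-base words with another gene. The highest mean over the 9 libraries was 803 times the lowest. The most abundant were Uqcrh at 586.5 RPKM, Cox4i1 at 515 RPKM, Cox6c at 372 RPKM, Ndufa4 at 327 RPKM and Cox6b1 at 259 RPKM. In complex I the next was Ndufa12, and the lowest were Ndufa4l2 at 0.834 RPKM and Ndufa11, at 5.43, 5.21 and 5.62 RPKM in homozygous, at 5.24, 4.78 and 4.81 RPKM in heterozygous and at 4.98, 4.84 and 4.95 RPKM in control libraries. For Ndufa11 the homozygous libraries lay above control, with a change of 0.13 ± 0.06 that did not pass (adjusted p = 0.162). The coefficient of variation over the 9 libraries had a median of 5.78%, and 58 of the 65 genes stayed under 10%. The members closest to the minimum of 0.5 RPKM were Cox7a1 at 0.730 RPKM and Ndufa4l2. The highest genes below that minimum, well under it, were Cox6b2 at 0.217 RPKM and Cox7b2 at 0.05 RPKM. The 5 genes that did not reach it, Cox6a2, Cox6b2, Cox7b2, Cox8b and Cox8c, are all complex IV isoforms known from heart, muscle or testis. Estimated reads per library ran from 37 to 71 for Cox7a1, from 97 to 216 for Ndufa4l2 and from 187 to 491 for Cox4i2, and were at least 464 for the other members with an estimate; Ndufs5-ps, with no transcript length, had none.

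RPKM was also summed over the genes of each complex. Complex I summed to 3087 ± 68.2 RPKM in homozygous, 3049 ± 44.5 RPKM in heterozygous and 3139 ± 10.7 RPKM in control cortex (SD, n = 3 each). Complex III summed to 1474 ± 28.5 RPKM in homozygous, 1351 ± 29.9 RPKM in heterozygous and 1393 ± 26.1 RPKM in control cortex; the homozygous libraries, at 1442 to 1498 RPKM, lay above the controls, at 1377 to 1423 RPKM, and the largest share of the sum was Uqcrh. Complex IV summed to 1673 ± 21.3 RPKM in homozygous, 1626 ± 41.9 RPKM in heterozygous and 1708 ± 57.1 RPKM in control cortex. Complex II summed to 289.6 ± 8.82 RPKM in homozygous, 283.5 ± 1.42 RPKM in heterozygous and 294 ± 2.82 RPKM in control cortex. In complexes I, II and IV homozygous and control libraries overlapped. Heterozygous libraries lay below all controls in complex I, at 3002 to 3091 RPKM against 3130 to 3151 RPKM. They also did in complex II, at 282.4 to 285.1 RPKM against 291.5 to 297.1 RPKM, and overlapped control in complexes III and IV. The sum over all genes tested was likewise lower, at 360500 to 364100 RPKM in heterozygous against 371800 to 376000 RPKM in control libraries. In homozygous libraries that sum was 356600 to 370300 RPKM. The part of this shift in the sums by complex was not tested.

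**Figure D3:**
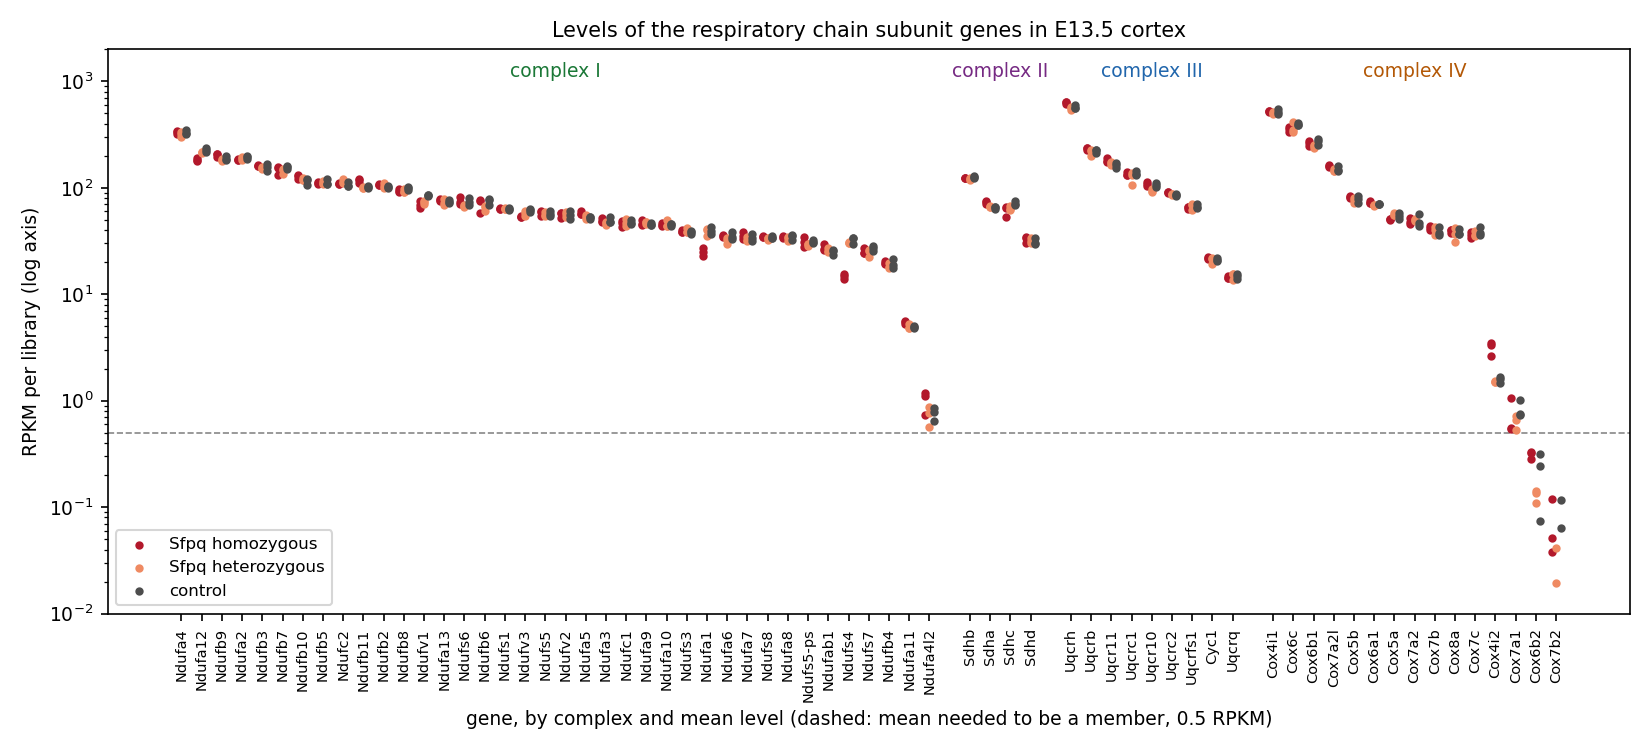
RPKM per library (vertical axis, log scale) of the subunit genes (horizontal axis, by complex and from the highest to the lowest mean), with homozygous, heterozygous and control libraries in 3 colours. Cox6a2, Cox8b, Cox8c, 1 of the 65 members and the 2 libraries in which Cox7b2 was listed at 0 are not drawn; the points of a gene lie close together except for Ndufs4, Ndufa1 and Cox4i2 and for the genes near the dashed line at 0.5 RPKM.

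Genomic span was read next, since the series asks about long genes. The subunit genes are short: in the GRCm38 annotation 20 span under 5 kb, 31 span 5 to 15 kb, 13 span 15 to 40 kb and 1 spans more, Ndufs4 at 100 kb, the next being Ndufa10 at 34.3 kb. The classes held 1, 2, 2 and 1 lower and 1, 2, 1 and 0 higher genes. Over the 65 genes, Spearman's rho between span and log2 change was -0.015, a description over genes measured in the same libraries. Among all 890 genes that span 80 to 120 kb, 25.1% were lower in homozygous cortex (29.4% among the 4221 genes of at least 40 kb), the median change was -0.04, and 21 had a more negative change than Ndufs4. Ndufa1 spans 3.65 kb; among 1573 genes under 5 kb, 16.3% were lower and 42 had a more negative change than Ndufa1.

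The genes next to Ndufs4, Arl15 at 130 kb and Fst at 64 kb from it, were named after their values were seen. Any part of the locus in the change of Ndufs4 was not tested. Arl15, a small GTPase gene of 363 kb, was lower (log2 change -1.67 ± 0.08, adjusted p = 6.92e-08), and Fst, which encodes follistatin and spans 6.73 kb, was higher (1.26 ± 0.10, adjusted p = 4.25e-06). Beside Cox4i2, Id1, an inhibitor of bHLH factors, had a change of 0.27 ± 0.09 (adjusted p = 0.0335) and Bcl2l1 one of 0.19 ± 0.09 (adjusted p = 0.117).

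For 7 members 2 or more transcripts reached 0.5 RPKM, and in no case did their changes differ by 0.5 or more; the largest difference, 0.145, was in Ndufv3, whose longer transcript, at 14.2 ± 0.560 RPKM in homozygous and 14.7 ± 0.386 RPKM in control cortex (SD, n = 3 each), had a log2 change of -0.05 ± 0.06 (adjusted p = 0.519). In GENCODE 22 of 64 members have an exon that overlaps an exon of another gene, and 24 of 64 share at least 10% of their 50-base words with another gene, so their values are uncertain to that extent. Ndufs4, Ndufa1, Ndufv1, Ndufv3, Sdha and Cox4i2 share no such word and have no such overlap.

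The rest of the pathway was read from lists of its other genes. Over the 191 genes of these lists that were tested, 33 were lower and 23 higher in homozygous against control cortex, with a median of -0.01. The background over all genes tested was 19.9% lower and 14.4% higher, for this count and for each list below. Those spanning under 40 kb had 22 lower and 20 higher of 165, and those of 40 kb and over 11 lower and 3 higher of 26. Of all 4221 genes tested that span 40 kb and over, 1241 were lower (29.4%) and 534 higher. The difference was not tested.

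Among the assembly factors, Ndufaf2 had a steeper fall than any subunit gene. Of 16 complex I assembly factors 6 were lower and 2 higher. Ndufaf2, the paralogue of Ndufa12 that acts late in assembly and spans 106 kb, fell to 29.1 ± 0.671 RPKM in homozygous cortex, against 91.9 ± 6.67 RPKM in heterozygous and 95.0 ± 13.4 RPKM in control cortex (SD, n = 3 each; log2 change -1.68 ± 0.09, adjusted p = 1.98e-07). Acad9 and Ndufaf8 fell by 0.29 each and Ndufaf1, a factor of the membrane arm, rose by 0.32. Of 4 complex II factors 2 were lower, Sdhaf3 at -0.61 ± 0.08 (83.7 kb) and Sdhaf1 at -0.23 ± 0.07. Of 6 complex III factors none was lower and 1 higher, Uqcc2 at 0.26 ± 0.07. Of 26 complex IV factors 4 were lower and 1 higher: Cmc1 (86.2 kb) at -0.92 ± 0.07, Cmc2 at -0.46 ± 0.06, Cox20 at -0.24 ± 0.08 and Cox18 at -0.23 ± 0.08, with Coa8 at 0.33 ± 0.06.

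ATP synthase, which uses the proton gradient, had 2 lower (Atp5j at -0.18 and Atp5o at -0.16) and 1 higher (Atp5h at 0.18) of 15 genes with values. Its largest changes in either direction did not pass. They were those of Atp5d at -0.33 ± 0.13 (limma adjusted p = 0.0785) and Atp5g1 at 0.19 ± 0.08 (limma adjusted p = 0.078). Of 13 tested genes for cytochrome c and ubiquinone synthesis 2 were lower and 2 higher. Pdss2, which makes the ubiquinone side chain and spans 247 kb, fell to 1.27 ± 0.112 RPKM in homozygous cortex, against 3.77 ± 0.259 RPKM in heterozygous and 3.88 ± 0.251 RPKM in control cortex (SD, n = 3 each; adjusted p = 6.17e-07), and cytochrome c itself, Cycs, had a change of 0.02 ± 0.05. In the TCA cycle, which feeds the chain, 4 of 16 genes were lower and none higher, led by Suclg2 (246 kb) at -0.87 ± 0.06. Of 78 mitochondrial ribosomal protein genes, 10 were lower and 12 higher, with Mrps9 at -1.76 ± 0.07 and Mrps6 at -1.10 ± 0.09 the steepest. Genes of mitochondrial DNA were not analysed here.

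Of 17 tested regulators of nuclear respiratory genes, 3 were lower and 4 higher. The factor NRF1, gene Nrf1, rose to 20.5 ± 0.765 RPKM in homozygous cortex, against 16.9 ± 1.08 RPKM in heterozygous and 15.3 ± 0.528 RPKM in control cortex (SD, n = 3 each; log2 change 0.41 ± 0.06, adjusted p = 0.000326). Esrra, an orphan nuclear receptor, and Gabpb1, a subunit of GABP, fell by 0.48 each, and Tfb1m, a mitochondrial rRNA methyltransferase, by 0.66. Mterf2, a mitochondrial transcription termination factor, rose by 0.44. Yy1 (0.07 ± 0.04), Gabpa (-0.11 ± 0.06) and Tfam (0.00 ± 0.05) did not pass.

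**Figure D4:**
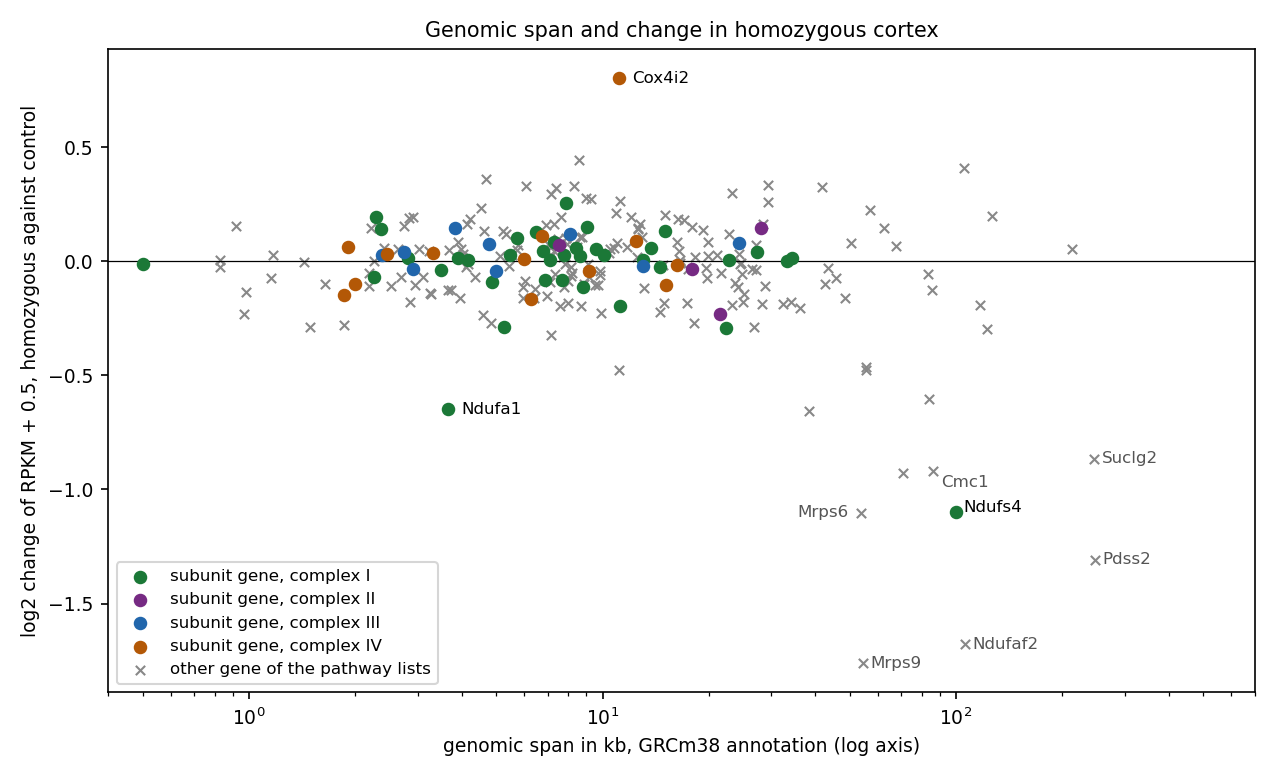
Genomic span in kb (horizontal axis, log scale) and log2 change in homozygous against control cortex (vertical axis) of 64 of the 65 subunit genes, coloured by complex, and of the other genes of the pathway lists (grey crosses). Subunit genes lie left of 40 kb and near 0 except Ndufs4 at 100 kb and, among the short ones, Ndufa1 and Cox4i2; the lowest crosses, Mrps9, Ndufaf2 and Pdss2, span 54.5, 106 and 247 kb.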

How the data were processed

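Total RNA from which ribosomal RNA had been removed was sequenced as stranded libraries, per the labels' protocols, with CASAVA 1.8.2, TopHat 1.4.1 and the build mm9, per the submitters' processing notes. Per the file headers, the authors deposited RPKM values of 30978 RefSeq transcripts, in 1 table for each library; library size and transcript length are thus divided out, and no counts were used. The counting program and how it handled strand and reads with several positions were not given in the sources used here. Depth was estimated from the steps between low values (64.1% to 67.3% of them lay within 0.1 of a whole read); the lengths come from another annotation, so it is approximate.

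Symbols came from a RefSeq table (30507 transcripts) and GENCODE M21 (178), and 293 transcripts had none. Spans, exon overlaps and shared words are those of GENCODE M21 on GRCm38, and promoter sequence is RefSeq's on GRCm38.p6; neither is the authors' build, so no coordinates of the authors are given. The 9 libraries entered a single limma fit (3.58.1, R 4.3.3) on log2(RPKM + 0.5), by genotype with empirical Bayes and a mean-variance trend, over the 12159 genes that average 0.5 RPKM or more, and p-values were adjusted over all of them (Benjamini-Hochberg). Single values were tested with two-sided exact permutation tests, whose smallest p is 0.1. The fit was tested on simulated data. The members and lists were chosen with earlier results of these data known. 1 member enters every count and fit but is not reported here by itself or drawn. Named are Sfpq and the other members, with values per library for those called, outlying, highest or lowest in a complex or isoform partners. Of the other pathway lists, called genes, mostly those with the smallest adjusted p, some extremes and a few other genes are named. Neighbouring genes were added after their values were seen. No libraries held identical values: within a group, log2 differences between libraries had an SD of 0.148 or more. Alternatives were other pseudocounts (0.1, 1), filters, transcript choices and scalings, fits of 2 groups, a replicate block, sex as a term, no trend, and leaving out each library.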

Additional observations from a re-analysis of the deposited data

How the results depend on the processing

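Under 21 alternatives, 9 of which leave out a library, the lower members in homozygous against control cortex numbered 4 to 7 (6 as reported) and the higher ones 2 to 12 (4 as reported). The higher count was 12 with libraries centred on their medians, 8 after quantile normalization and 2 without the mean-variance trend, and ran from 2 to 4 with a library left out; it was 2 without control replicate 1, control replicate 2, homozygous replicate 2 or homozygous replicate 3. The lower count ran from 5 to 7 with a library left out. Against heterozygous cortex the higher count was 14 with median centring and 3 to 6 with a library left out, and the lower one 3 to 4. Over all genes, median centring gave 1947 lower and 2953 higher and quantile normalization 2167 and 2568, against 2423 and 1747 as reported; the median change of all genes was 0.06 with median centring, against -0.01 as reported. The cause of the shift was not tested. Heterozygous against control cortex had 0 members in either direction in every alternative.

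Ndufs4, Ndufa1, Ndufa12, Ndufv1, Cox4i2 and Ndufb11 kept direction and call against control in all 21. None of the 15 members that were called, outlying or both in a comparison with homozygous cortex reversed a call; genes outside the members were not rerun one by one. Ndufv3 lost it in 1, Sdha in 5, Ndufa5 in 8 and Sdhc in 9; with median centring Cox7a2l, Ndufa11, Ndufa4l2, Ndufb2, Ndufb9, Uqcr11, Uqcrc2 and Uqcrh were also higher. Whether same-numbered libraries form pairs was not tested. Correlations of deviations between same-numbered libraries ran from -0.04 to 0.40. Between control and homozygous libraries they were 0.40, 0.07 and 0.32, against -0.44 to 0.10 for different numbers. With a replicate block 6 members were lower and 6 higher against control, and 3 and 6 against heterozygous cortex. Over all genes that block gave 2532 lower and 1897 higher against control, against 2423 and 1747 without it. A mean of at least 2 RPKM left 63 members. The depth limits Cox7a1, Ndufa4l2 and Cox4i2 most.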
